A study of Homo sapiens with 24 samples.

Results

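The genes described here encode the nuclear-encoded subunits of respiratory complexes III, IV and V. They comprised 35 genes, 9 for complex III, 11 for complex IV and 15 for complex V, chosen by name from the 61860 genes of each count table. All 35 were found in the tables and all 35 passed the filter on low counts in every experiment.

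The RNA-seq data came from OE33, a human esophageal adenocarcinoma cell line, and comprised 24 libraries in 4 experiments, each with 3 treated and 3 control libraries. The first experiment set OE33 xenografts from male nude mice given high-fat food (HFD, 35% fat) against xenografts from mice on a normal diet (ND, 4.3% fat). The mice, BALB/c-nu, were 4 weeks old when obtained, received the diet for 8 weeks before subcutaneous injection, and the tumors were collected after 3 weeks. In the second experiment, cultured OE33 cells carried an HA-TRIM15 plasmid or the empty vector (EV) for 48 h. TRIM15 is a ubiquitin ligase of the tripartite motif family. The third experiment compared cells with shYY2 and cells with shControl at 72 h, where YY2 is a zinc-finger transcription factor related to YY1. In the fourth, cells with shFOXRED1 were compared with a separate shControl at 72 h, where FOXRED1 is an assembly factor of complex I. The libraries of every group, controls included, derive from this single cell line, and all cultured groups were transfected. The methods describe 2 shRNA sequences per target, and the labels do not say which one was sequenced. The labels also do not say whether replicates came from separate cultures or animals, so p-values measure the spread between these samples, which may be technical.

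Complexes III and IV pass electrons from ubiquinol through cytochrome c to oxygen and pump protons across the inner mitochondrial membrane. Complex V, the ATP synthase, lets the protons flow back through a ring of c subunits, which turns a central stalk inside the catalytic F1 head and drives ATP synthesis. The core catalytic subunits of complex IV, cytochrome b of complex III and subunit a of the ATP synthase are encoded by mitochondrial DNA. The genes measured here therefore cover the remaining subunits: the Rieske protein and cytochrome c1 of complex III, the supernumerary subunits, and nearly all of the ATP synthase.

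Total counts ranged from 14299807 to 45994561 per library. All 37 mitochondrial genes were listed at 0 counts in all 24 libraries, so the mitochondrially encoded subunits (MT-CYB, MT-CO1 to MT-CO3, MT-ATP6, MT-ATP8) could not be measured. All 7 epithelial markers were detected, with a summed level of 10958 to 16406 CPM, the TMM-scaled counts per 1e+06 counts. Of the fibroblast markers, COL1A1 carried nearly all of the summed level, which was 23.6 to 26.9 CPM in HFD xenografts, 30.4 to 33.4 in ND xenografts, 42.0 to 43.8 with shYY2, 10.5 to 11.2 with its shControl, 38.4 to 41.8 with shFOXRED1 and 24.1 to 25.3 with its shControl. LUM was at 0 in every HFD library and DCN and PDGFRA in every ND library. The leukocyte markers summed to 14.7 to 14.8 CPM in HFD and 15.7 to 17.2 CPM in ND xenografts, nearly all of it ITGAM and CD14. In cultured cells the same sum went from 7.87 to 8.19 CPM with EV up to 24.5 to 26.5 CPM with the shControl of the FOXRED1 experiment. Endothelial, adipocyte and skeletal muscle markers each summed to under 0.6 CPM in both xenograft groups. Their part in the results was not tested. In bulk RNA of the tumors, fewer cells of a type and less RNA per cell cannot be told apart, while the cultured libraries come from a single cell line. All marker rows are human genes, whereas host cells in the xenografts were from mice. The COL1A1 level in cultured cells also reached that of the xenografts. These sums therefore do not measure the amount of host cells.

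The targeted genes followed their labels. TRIM15 had 0 counts in the 3 EV libraries, where 3 counts, taken as the floor for a count of 0, would be 0.112 to 0.148 CPM. It stood at 5.41, 8.45 and 11.4 CPM in the HA-TRIM15 libraries. YY2 was at 0.669, 0.72 and 0.595 CPM with shYY2 and at 2.36, 2.36 and 2.32 CPM with shControl. FOXRED1 was at 10.2, 11.2 and 8.83 CPM with shFOXRED1 and at 17.7, 17.2 and 17.3 CPM with its shControl. FOXRED1 was also lower with shYY2 (log2 fold change -0.89) and with HA-TRIM15 (-0.24).

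Levels of the members were compared per length, as CPM per kilobase of the union of a gene's annotated exons (RPKM). This union can be longer than a transcript, at 10908 bases for ATP5F1A, so ranks also depend on the annotation. ATP5F1B, the catalytic β subunit of the F1 head, ranked first of 35 in all 4 control groups, at 200 RPKM in ND, 293 in EV, 250 in the shControl of the YY2 experiment and 199 in the shControl of the FOXRED1 experiment. COX8A ranked second in each. The lowest ranks belonged to ATP5ME and ATP5MG, small membrane subunits of the ATP synthase, and ATP5ME stood at 2.46 RPKM in ND. The 35 members therefore rested on very unequal read numbers, from 1654 counts over the 24 libraries for ATP5ME to 262585 for ATP5F1B. Processed pseudogenes can share reads with small subunit genes, and over the 24 libraries their rows held under 1% of the summed counts of member and pseudogenes for 32 members and at most 5.45% (COX6A1). In single libraries this share reached 7.98% for COX6A1 and ranged from 0.921 to 6.25% for ATP5MC1.

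To ask how the complexes moved as a whole, the CPM of the members were summed in each library. Such sums follow the abundant genes most: in ND xenografts ATP5F1B alone held 464 of the 1631 CPM of complex V. The sum was 3707, 3761 and 3580 CPM in HFD xenografts against 3570, 3402 and 3536 CPM in ND xenografts, a difference of 5.16%. It was 4038, 3889 and 3771 CPM with HA-TRIM15 against 4196, 4266 and 4178 CPM with EV, a difference of -7.46%. With shYY2 it was 3198, 3121 and 3118 CPM against 3485, 3464 and 3577 CPM, and with shFOXRED1 2504, 2472 and 2352 CPM against 2876, 2965 and 2872 CPM. The 3 treated libraries lay above the 3 controls in the xenografts and below them in the other experiments, without overlap. An exact permutation test of 3 against 3 cannot go below p = 0.1. As a share of unscaled total counts, the xenograft groups did overlap, at 0.345 to 0.361% for HFD and 0.353 to 0.371% for ND. The scaling factors that separate both views were 0.961 to 0.965 for HFD and 1.037 to 1.041 for ND.

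The complexes did not contribute alike to these sums. Complex V differed in the mean by 7.28% in HFD xenografts and by -6.70% with HA-TRIM15, and it fell by 18.0% with shYY2 and fell by 20.0% with shFOXRED1, each without overlap of the groups. Complex III followed the same directions, with differences of 6.29%, -6.96%, -7.77% and -14.0%. The summed complex IV genes overlapped between HFD and ND (0.983% apart) and between shYY2 and shControl (1.83% apart), and were lower without overlap with HA-TRIM15 (-9.22%) and with shFOXRED1 (-9.59%).

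Single genes were tested by the quasi-likelihood F-test of edgeR. Every adjusted p is this test's p after Benjamini-Hochberg adjustment over the whole table, and a gene passed at 0.05. Differences are log2 fold changes, treated minus control, with their standard error (SE).

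**Figure D1:**
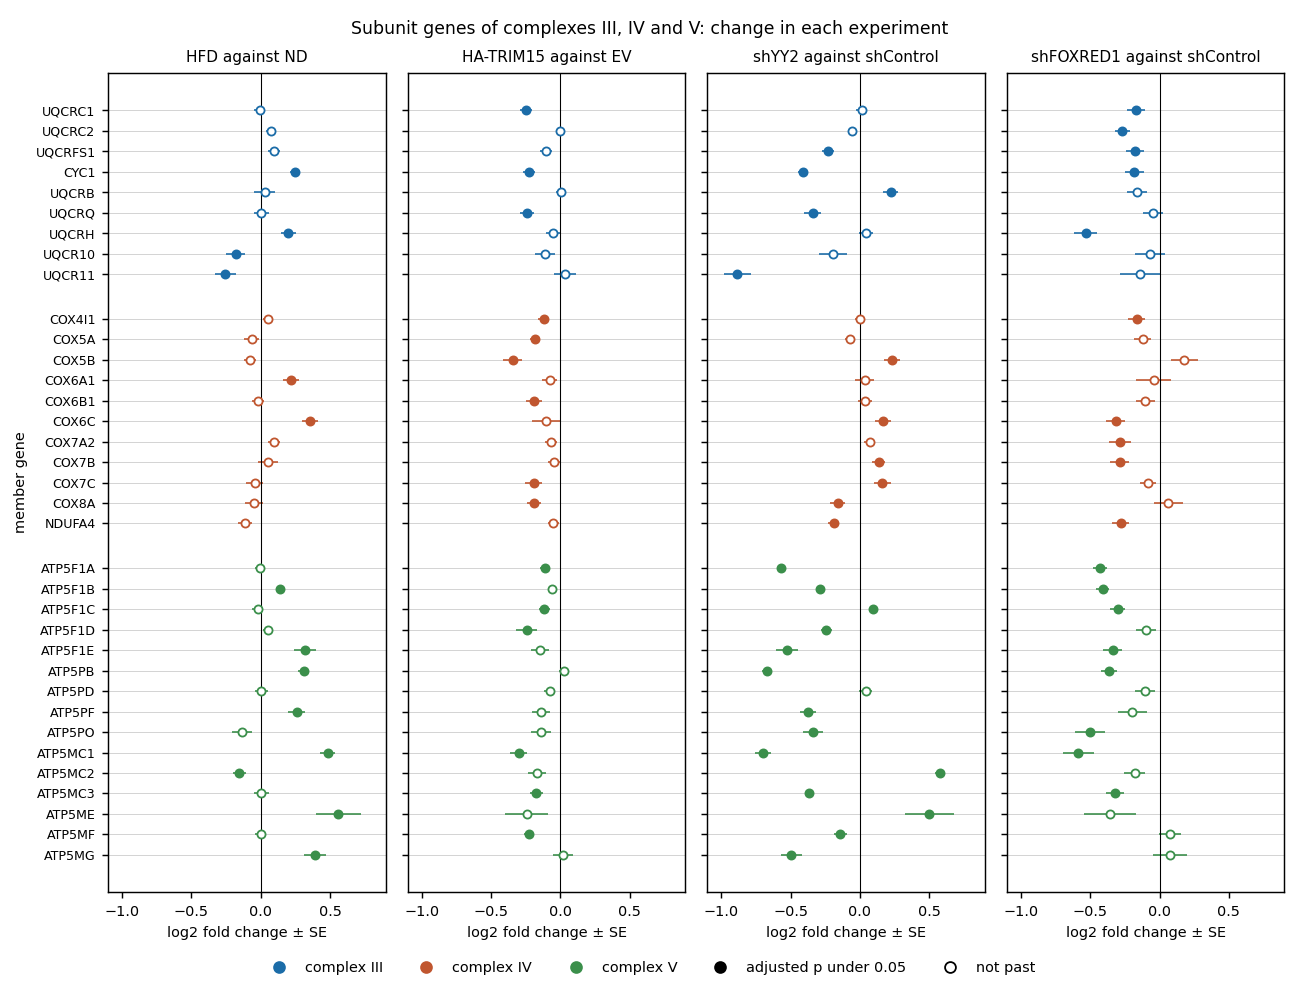
Log2 fold change (horizontal axis) ± SE of each of the 35 members (rows, colored by complex) in the 4 experiments, with filled points where the adjusted p was under 0.05. Filled points lie on both sides of 0 in the xenografts (11 higher, 3 lower) and with shYY2 (8 higher, 17 lower), and on the left side alone with HA-TRIM15 (15 lower) and shFOXRED1 (18 lower).

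The first comparison asked how the diet of the host related to the complexes in the tumors. Of the 35 members, 11 were higher and 3 lower in HFD xenografts, where 25.6% of all genes tested were higher and 23.9% lower. The median member changed by 0.03, against -0.01 over all genes. Complex V had 7 of 15 higher and 1 lower, while complex III had 2 higher and 2 lower of 9 and complex IV 2 higher of 11.

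In complex III, CYC1, the cytochrome c1 subunit that hands electrons to cytochrome c, was at 177, 176 and 174 CPM in HFD and at 148, 146 and 149 CPM in ND xenografts. All HFD libraries lay above all ND libraries, with a log2 fold change of 0.25 (SE 0.033, adjusted p = 1.21e-05). UQCRH, the hinge subunit beside cytochrome c1, was at 79.6, 86.0 and 76.5 CPM against 76.6, 67.6 and 66.1 CPM (0.20, adjusted p = 0.00657), and the lowest HFD library fell just under the highest ND library. The small membrane subunits UQCR11 (-0.26, adjusted p = 0.0102) and UQCR10 (-0.18, adjusted p = 0.04) were lower. Without ND replicate 3, the adjusted p was 0.051 for UQCR11 and 0.196 for UQCR10, which also did not pass without HFD replicate 2 or 3. UQCRFS1, the Rieske iron-sulfur protein, did not pass (0.09, adjusted p = 0.0749).

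In complex IV, COX6C, a small membrane subunit, was at 84.9, 84.1 and 75.8 CPM in HFD and 67.3, 58.1 and 66.2 CPM in ND xenografts, a rise of 0.36 (SE 0.057, adjusted p = 7.05e-05). COX6A1, the common isoform of subunit 6A, was at 37.1, 32.8 and 34.4 CPM against 28.2, 31.8 and 29.2 CPM (0.22, adjusted p = 0.00543). For both genes every HFD library was above every ND library. The other 9 complex IV members, COX4I1 (0.05) and NDUFA4 (-0.11) among them, ranged from -0.11 to 0.09 and did not pass.

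In complex V, the gene with the lowest adjusted p was ATP5MC1, 1 of the 3 genes that encode the proton-carrying c subunit. It was at 34.6, 37.0 and 32.9 CPM in HFD and at 25.3, 25.2 and 23.7 CPM in ND xenografts, and the groups did not overlap, with a log2 fold change of 0.48 (SE 0.055, adjusted p = 2.02e-06). ATP5MG (18.9, 18.2 and 16.4 CPM against 12.2, 13.6 and 14.8 CPM) rose by 0.39 (adjusted p = 0.000666). ATP5ME rose by 0.56 (SE 0.16, adjusted p = 0.00961) at 3.10 to 3.55 CPM against 1.80 to 2.88 CPM, and did not pass without ND replicate 2 (adjusted p = 0.078). Both encode small subunits of the membrane part. ATP5F1B was at 518, 507 and 508 CPM against 456, 472 and 465 CPM, a small rise of 0.14 (adjusted p = 0.00205). ATP5MC2, which encodes the same c subunit as ATP5MC1, moved the other way (77.0, 79.0 and 69.5 CPM against 83.3, 81.1 and 86.1 CPM, -0.16, adjusted p = 0.0114), and without HFD replicate 3 its adjusted p was 0.128. ATP5MC3, the remaining c-subunit gene, differed by 0.00 (adjusted p = 0.955), with a sign that turned under upper-quartile scaling (-0.054) and total counts alone.

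The split of the xenograft calls depended on the scaling: 11 higher and 6 lower with upper-quartile scaling, and 7 higher and 14 lower with total counts alone. ATP5MC1 and CYC1 kept their direction and their call under both, whereas UQCRH, COX6A1 and ATP5F1B did not pass with total counts alone.

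The second comparison asked what HA-TRIM15 changed. With HA-TRIM15, 15 of the 35 members were lower and none was higher, where 9.53% of all genes tested were lower and 12.5% higher. By edgeR, 0 members were higher at an unadjusted p under 0.05 too, and 19 were lower. DESeq2 called 12 lower and 0 higher. The calls fell in all complexes, with 3 of 9 in complex III, 6 of 11 in complex IV and 6 of 15 in complex V, and the changes were small: the median member changed by -0.12, and the largest change was -0.34. Without HA-TRIM15 replicate 2, EV replicate 1 or EV replicate 2, the lower calls numbered 8, 8 and 7.

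In complex III, UQCRC1, a core protein facing the matrix, was at 107, 95.1 and 95.4 CPM with HA-TRIM15 and at 115, 119 and 120 CPM with EV (-0.25, SE 0.045, adjusted p = 0.00139). UQCRQ was at 44.1, 39.8 and 38.9 CPM against 48.9, 47.9 and 48.6 CPM (-0.24, adjusted p = 0.00398). CYC1 was at 185, 169 and 158 CPM against 198, 202 and 199 CPM (-0.22, adjusted p = 0.00273). In all of these genes the HA-TRIM15 libraries lay below the EV libraries without overlap. UQCRFS1 did not pass (-0.10, adjusted p = 0.0795).

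In complex IV, COX5B, a nuclear-encoded subunit on the matrix side, was at 59.9, 57.8 and 46.7 CPM with HA-TRIM15 and at 67.5, 73.3 and 68.7 CPM with EV, the largest change among the members (-0.34, SE 0.069, adjusted p = 0.00251). COX7C was at 157, 147 and 124 CPM against 161, 166 and 164 CPM (-0.19, adjusted p = 0.0356), and COX8A at 76.9, 65.5 and 71.0 CPM against 83.2, 82.9 and 78.7 CPM (-0.19, adjusted p = 0.0153). HA-TRIM15 replicate 3 was the lowest library for COX5B and COX7C, and without it the log2 fold change of COX7C was -0.10 with an adjusted p of 0.0878. The COX7C call was kept in 1 of the 6 fits that left out a library. COX8A did not pass without HA-TRIM15 replicate 2, EV replicate 1 or EV replicate 2. COX4I1, which encodes the largest nuclear subunit, was at 213, 201 and 193 CPM against 216, 225 and 220 CPM (-0.12, adjusted p = 0.0325), and NDUFA4 differed by -0.05 (adjusted p = 0.431). The call of COX4I1 was likewise kept in 1 of 6.

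In complex V, ATP5MC1 was at 42.1, 36.7 and 34.8 CPM with HA-TRIM15 and at 45.7, 48.3 and 46.8 CPM with EV (-0.30, SE 0.061, adjusted p = 0.00274). ATP5MF, a membrane subunit, had the lowest adjusted p of all members (87.8, 85.2 and 82.7 CPM against 100, 101 and 98.3 CPM, -0.23, adjusted p = 0.000703). ATP5F1D, the δ subunit of the central stalk, was at 67.4, 53.5 and 50.6 CPM against 70.0, 66.4 and 68.1 CPM (-0.24, adjusted p = 0.0331), so that replicate 1 lay inside the EV range. Its call was lost in 5 of the 6 fits without a library. ATP5MC3 was at 171, 163 and 147 CPM against 181, 186 and 176 CPM (-0.17, adjusted p = 0.0163) and lost its call in 3 of the 6. ATP5MC2 differed by the same size without passing (-0.17, adjusted p = 0.0655), and ATP5F1B differed by -0.06 (adjusted p = 0.162).

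The third comparison asked what knockdown of YY2 changed. With shYY2, 17 of the 35 members were lower and 8 higher, in an experiment where 38.1% of all genes tested were lower and 36.8% higher. The median member changed by -0.14. Complex V had 11 of 15 genes lower and 3 higher with a median of -0.34, complex III had 4 of 9 lower and 1 higher, and complex IV had 4 of 11 higher and 2 lower with a median of 0.04. With upper-quartile scaling, 14 members were higher and 15 lower. Without shYY2 replicate 1, shYY2 replicate 3, shControl replicate 1 or shControl replicate 2, the higher calls numbered 5, 5, 5 and 4.

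In complex III, UQCR11, the last of the small membrane subunits, was at 6.63, 7.98 and 6.55 CPM with shYY2 and at 13.2, 12.9 and 12.9 CPM with shControl. This was the largest change of any member in any of the experiments, at -0.88 (SE 0.097, adjusted p = 5.45e-07). CYC1 was at 140, 133 and 128 CPM against 178, 183 and 172 CPM (-0.41, SE 0.036, adjusted p = 4.01e-08), and UQCRQ at 36.6, 34.0 and 39.1 CPM against 44.1, 44.4 and 50.4 CPM (-0.34, adjusted p = 0.000119). The Rieske gene UQCRFS1 was at 55.0, 55.1 and 56.3 CPM against 61.5, 64.7 and 69.0 CPM (-0.23, adjusted p = 0.000214). In these 4 genes the groups did not overlap. UQCRB, which helps bind ubiquinone, was the only complex III gene that rose, at 101, 90.3 and 99.0 CPM against 82.1, 76.9 and 89.6 CPM (0.22, adjusted p = 0.00118). Both catalytic subunit genes, CYC1 and UQCRFS1, were lower, whereas the 2 core protein genes did not pass and ranged from -0.05 to 0.01.

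In complex IV, COX5B rose from 62.6, 64.2 and 75.1 CPM with shControl to 77.6, 81.3 and 78.5 CPM with shYY2 (0.23, adjusted p = 0.00147). COX6C was at 73.6, 70.1 and 75.4 CPM against 58.6, 65.4 and 71.2 CPM (0.16, adjusted p = 0.0151) and COX7C at 140, 128 and 137 CPM against 117, 108 and 136 CPM (0.16, adjusted p = 0.0263). In the latter pair the groups overlapped, and the calls were lost without shControl replicate 1 (0.09 with adjusted p = 0.129, and 0.13 with adjusted p = 0.11). The COX6C call was also lost without shYY2 replicate 3, and the COX7C call without shYY2 replicate 1 or 3 or shControl replicate 2 (0.08 without the latter). NDUFA4, once counted with complex I and now known as a subunit of complex IV, fell from 128, 125 and 134 CPM to 120, 113 and 106 CPM (-0.19, adjusted p = 0.000698). COX8A was lower by -0.16 (adjusted p = 0.0152) and did not pass without shYY2 replicate 1, shYY2 replicate 3 or shControl replicate 1. COX4I1 differed by 0.00 and its sign depended on the scaling, with 0.01 under size factors and 0.08 under upper-quartile scaling.

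In complex V, ATP5MC1 was at 17.3, 18.6 and 19.3 CPM with shYY2 and at 29.6, 30.7 and 29.6 CPM with shControl (-0.70, SE 0.060, adjusted p = 2.66e-08). ATP5PB, the b subunit of the peripheral stalk that holds the F1 head still, was at 125, 127 and 123 CPM against 203, 197 and 200 CPM (-0.67, SE 0.030, adjusted p = 7.52e-12). ATP5F1A, the α subunit of the head, was at 128, 135 and 131 CPM against 195, 196 and 192 CPM (-0.57, adjusted p = 9.46e-11), and its partner ATP5F1B was at 482, 475 and 467 CPM against 572, 588 and 581 CPM (-0.29, adjusted p = 5.92e-08). The groups did not overlap in any of these genes, and both head subunits, 3 of 4 peripheral stalk subunits and 2 of 3 central stalk subunits were lower. ATP5MC3 was at 102, 95.7 and 99.4 CPM against 128, 123 and 131 CPM (-0.36, adjusted p = 1.15e-07).

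Against this direction, ATP5MC2 was at 93.8, 89.7 and 91.1 CPM with shYY2 and at 61.2, 59.8 and 62.6 CPM with shControl, a rise of 0.58 (SE 0.036, adjusted p = 5.13e-10). ATP5ME rose by 0.50 (SE 0.18, adjusted p = 0.0177) at 2.88 to 4.08 CPM against 2.01 to 2.69 CPM. It did not pass without shYY2 replicate 1 (adjusted p = 0.105) or shControl replicate 2 (0.0774). ATP5F1C, the γ subunit that turns inside the head, was at 144, 149 and 147 CPM against 140, 134 and 138 CPM (0.10, adjusted p = 0.011) and did not pass without shControl replicate 2 (0.0844).

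Because YY2 was the factor knocked down, the promoters of the members were searched for a YY-type motif, spelled AANATGGC, and for motifs of 2 factors known to act on respiratory genes, NRF1 (CGCATGCG) and the ETS family, which includes the GA-binding protein (CCGGAAGT). The windows, from RefSeq on GRCh38.p14, ran from 250 bases before to 50 bases after each annotated start, and both strands were read. Of the 35 members, 27 had an entry. The 27305 genes had 35116 windows, and a gene was counted once if any of its windows held a match. A match of the YY-type letters within the 50 bases after the start can coincide with a start codon. The YY-type letters were in 11 of 27 members (40.7%) and in 7.97% of 27305 genes, the NRF1-type letters in 5 (18.5%, all genes 2.46%) and the ETS-type letters in 8 (29.6%, all genes 4.95%). Split by the shYY2 call, the YY-type letters were in 6 of 11 lower, 1 of 6 higher and 4 of 10 other members, and in 13.9%, 9.92% and 10.8% of all lower, higher and other genes. The 7 called members that hold them are shown as 30 bases on the gene's strand, with the motif in capitals (capitals that begin with G are a match on the opposite strand). COX7B is the 1 that was higher.
ATP5F1A, chr18:46098280-46098309, minus strand, position -2: tttgcggctcgGCCATTTTgtcccagtcag
ATP5PB, chr1:111449451-111449480, plus strand, position -2: acttgtgagcgGCCATCTTggtcctgccct
ATP5PF, chr21:25735093-25735122, minus strand, position -57: taggcgaagaaAAGATGGCggaggctgtgc
ATP5PO, chr21:33915755-33915784, minus strand, position 39: cctacagccgcccgggagAAGATGGCtgcc
COX8A, chr11:63974606-63974635, plus strand, position -3: cggccagcgcaGCCATTTTggcttcctgac
UQCRFS1, chr19:29213103-29213132, minus strand, position 31: gagcggctgtcGCCATGTTgtcggtagcat
COX7B, chrX:77899449-77899478, plus strand, position -8: cccggctgaaaGCCATTTTgtttttcagct

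Positions count from the start at 1, with no 0, and give the first base of the motif as printed. ATP5PF has another annotated start, from which the same letters lie at position -207. The NRF1-type letters were in 3 of the 6 higher members and in 1 of 11 lower members, and in 3.49% of all higher and 5.33% of all lower genes. The 3 higher members are shown since they are the ATP synthase genes that rose with shYY2.
ATP5MC2, chr12:53676106-53676135, minus strand, position -41: ggcccgggtcaCGCATGCGctgagccttcc
ATP5ME, chr4:674335-674364, minus strand, position -77: gccgctgacggCGCATGCGtgcgcccagct
ATP5F1C, chr10:7788145-7788174, plus strand, position -21: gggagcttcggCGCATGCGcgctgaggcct

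A pair of whole promoters is given for contrast, each as the 250 bases before an annotated start (for ATP5PF, the start that gives position -57). ATP5PF, a peripheral stalk gene that was lower with shYY2, holds a match to both the NRF1-type and the YY-type letters in this stretch (in capitals). ATP5MC1, the complex V gene called in every experiment, has none of the 3 letter strings in its window. These matches are descriptions of the letters and were not tested as sites.
ATP5PF, chr21:25735055-25735304, minus strand: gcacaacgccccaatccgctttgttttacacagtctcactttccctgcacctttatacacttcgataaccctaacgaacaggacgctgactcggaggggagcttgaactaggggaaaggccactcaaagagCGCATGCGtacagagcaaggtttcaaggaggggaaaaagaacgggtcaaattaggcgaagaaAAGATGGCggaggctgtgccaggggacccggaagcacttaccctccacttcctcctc
ATP5MC1, chr17:48892537-48892786, plus strand: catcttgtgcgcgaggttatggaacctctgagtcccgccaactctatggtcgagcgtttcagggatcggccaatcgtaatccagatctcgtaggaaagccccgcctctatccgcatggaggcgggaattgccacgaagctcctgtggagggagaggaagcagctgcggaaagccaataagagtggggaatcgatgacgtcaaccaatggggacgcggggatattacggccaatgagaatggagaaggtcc

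The fourth comparison asked what knockdown of FOXRED1 changed. With shFOXRED1, 18 of the 35 members were lower and none was higher, where 19.7% of all genes tested were lower and 16.8% higher. By edgeR and by DESeq2, 0 members were higher at an unadjusted p under 0.05 too, and DESeq2 called 15 lower. The fits that left out a library gave 13 to 16 lower members, and 1 higher member without shFOXRED1 replicate 3. The calls comprised 5 of 9 genes in complex III, 5 of 11 in complex IV and 8 of 15 in complex V, with medians of -0.17, -0.12 and -0.32. The median member changed by -0.18 and the median of all genes by 0.01.

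In complex III, UQCRH was at 42.2, 38.7 and 33.9 CPM with shFOXRED1 and at 53.7, 58.9 and 54.0 CPM with shControl (-0.53, SE 0.082, adjusted p = 6.68e-05). UQCRC2, the second core protein, was at 195, 187 and 211 CPM against 233, 242 and 238 CPM (-0.27, adjusted p = 0.00095). CYC1 was at 142, 137 and 115 CPM against 147, 153 and 148 CPM (-0.18, adjusted p = 0.0459) and UQCRFS1 at 51.8, 52.2 and 52.1 CPM against 59.9, 59.2 and 57.4 CPM (-0.18, adjusted p = 0.0383). No groups overlapped in these genes, but the calls of CYC1 and UQCRFS1 lay close to the threshold and were each lost in 5 of the 6 fits without a library. Without shFOXRED1 replicate 3, CYC1 was at -0.10. Both calls were also lost with upper-quartile scaling (adjusted p = 0.0974 and 0.0854) and with total counts alone (0.16 and 0.156).

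In complex IV, COX6C was at 41.8, 40.1 and 40.9 CPM with shFOXRED1 and at 48.4, 53.3 and 51.4 CPM with shControl (-0.32, SE 0.070, adjusted p = 0.00176). COX7B was at 45.3, 46.9 and 47.1 CPM against 57.3, 58.7 and 54.2 CPM (-0.29, adjusted p = 0.00264), and COX7A2 at 47.6, 50.03 and 45.0 CPM against 58.8, 63.0 and 52.1 CPM (-0.28, adjusted p = 0.00816). NDUFA4 was at 72.8, 71.2 and 71.6 CPM against 86.5, 91.0 and 84.3 CPM (-0.28, adjusted p = 0.00152). In all 4 the treated libraries lay below the controls. COX7A2 did not pass without shControl replicate 2 (adjusted p = 0.0717). COX4I1 was lower by -0.16 (adjusted p = 0.0456), a call that was kept in 1 of the 6 fits without a library.

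In complex V, ATP5MC1 was at 21.1, 21.5 and 15.5 CPM with shFOXRED1 and at 29.6, 30.9 and 27.1 CPM with shControl (-0.59, SE 0.11, adjusted p = 0.000538). ATP5PO, a peripheral stalk subunit that gives sensitivity to oligomycin, was at 15.6, 16.6 and 13.4 CPM against 22.8, 20.2 and 21.7 CPM (-0.50, adjusted p = 0.00124). ATP5F1A was at 141, 137 and 137 CPM against 183, 184 and 191 CPM (-0.43, adjusted p = 5.89e-06) and ATP5F1B at 349, 354 and 340 CPM against 446, 459 and 479 CPM (-0.41, adjusted p = 3.73e-06). Both head subunits were thus lower by similar amounts, without overlap. ATP5MC3 was lower by -0.32 (adjusted p = 0.000713). ATP5MC2 was at 62.3, 68.5 and 56.7 CPM against 71.1, 74.3 and 67.2 CPM and did not pass (-0.18, adjusted p = 0.0698). It passed with the replicate number as a block (adjusted p = 0.00798). The 3 small membrane subunit genes ranged from -0.36 to 0.08 and did not pass.

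The 3 genes of subunit c (ATP5MC1, ATP5MC2, ATP5MC3) encode precursors that differ in the import sequence and are cut to the same mature protein. Their separate changes were therefore also read as shares of their summed RPKM. In shControl cells of the YY2 experiment, ATP5MC2 held 33.6% ± 0.250 (SD, n = 3) of the sum, ATP5MC1 25.1% ± 0.875 and ATP5MC3 41.2% ± 0.630. With shYY2 the shares were 51.4% ± 0.584 for ATP5MC2, 15.8% ± 0.978 for ATP5MC1 and 32.8% ± 0.506 for ATP5MC3, so that ATP5MC2 became the leading gene in each library. The RPKM sum itself was 45.2, 43.7 and 44.9 with shYY2 and 45.6, 44.9 and 46.3 with shControl, and the groups overlapped. Summed CPM did not overlap, at 213.2, 204 and 209.8 with shYY2 and 219, 213.7 and 223.3 with shControl.

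In the xenografts, the share of ATP5MC1 was 25.1% ± 0.486 with HFD and 18.5% ± 1.12 with ND, and that of ATP5MC2 was 35.5% ± 0.508 against 40.8% ± 0.0636, while the sum overlapped at 49.1 to 56.6 RPKM against 49.8 to 52.7 RPKM. With HA-TRIM15, ATP5MC1 held 27.0% ± 1.00 against 28.9% ± 0.373, while the sum was 58.1, 54.3 and 48.3 RPKM against 61.4, 63.4 and 61.5 RPKM. With shFOXRED1, ATP5MC1 held 20.4% ± 1.76 against 24.7% ± 0.436, and the sum was 37.3, 38.7 and 32.1 RPKM against 45.3, 47.4 and 42.9 RPKM. The summed RPKM of the c subunit genes thus did not overlap between the groups in these last 2 experiments and overlapped in the others. Summed CPM did not overlap with shYY2 either, so that the reading there depended on the scaling by length.

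The other genes of the pathway were read from lists of assembly factors, tissue-restricted isoforms and minor subunits, cytochrome c with its heme lyase and complex II, and nuclear regulators. The 8 complex III assembly genes had 6 lower and none higher with shYY2 (median -0.60), 3 higher and 1 lower in HFD xenografts, 1 lower with HA-TRIM15 and 2 lower with shFOXRED1. Among the 26 complex IV assembly genes, 14 were lower and 5 higher with shYY2, 6 higher and 2 lower in HFD xenografts, 4 lower with HA-TRIM15 and 3 lower with shFOXRED1. Over all genes tested, 38.1% were lower and 36.8% higher with shYY2, 25.6% higher and 23.9% lower in HFD xenografts, 9.53% lower with HA-TRIM15 and 19.7% lower with shFOXRED1. The share of higher genes in HFD xenografts among the complex IV assembly genes thus lay near that of all genes. Of 6 complex V assembly and inhibitor genes, 5 passed the filter, and 3 were lower and 1 higher with shYY2, 1 was lower in HFD xenografts and none passed with HA-TRIM15 or shFOXRED1.

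With shYY2, the largest changes among the assembly genes were decreases. BCS1L, which inserts the Rieske protein into complex III, was at 14.2, 13.1 and 13.7 CPM against 30.5, 33.8 and 33.6 CPM (-1.26, adjusted p = 6.57e-11), and UQCC2 at 14.2, 13.3 and 11.8 CPM against 26.5, 25.5 and 27.2 CPM (-1.01). COA7 was at 9.86, 8.64 and 10.8 CPM against 34.6, 31.7 and 30.7 CPM (-1.72, adjusted p = 1.55e-11) and COA4 was lower by -0.89, both being assembly factors of complex IV. TMEM70, which helps assemble the c ring, was at 8.16, 7.68 and 7.03 CPM against 22.1, 22.4 and 20.7 CPM (-1.51, adjusted p = 9.91e-11), and TMEM242 was lower by -0.42. In the other direction, the copper factors COX19 (0.61) and SCO2 (0.69) and the inhibitor ATP5IF1 (0.20) were higher. SCO2 did not pass without shControl replicate 3, and ATP5IF1 was lost in 4 of the 6 fits without a library.

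In HFD xenografts, TTC19, which clears fragments of the Rieske protein, was at 49.8, 53.4 and 50.7 CPM against 31.7, 30.2 and 32.1 CPM (0.71, adjusted p = 3.05e-09). LYRM7, the chaperone of the Rieske protein, rose by 0.58, and UQCC1 was lower by -0.28. Of the complex IV factors, COX16 (0.79) and SCO2 (0.77) rose from under 3 CPM, while COA8 (-0.26) and COA3 (-0.16) were lower and lost their calls in 4 of the 6 fits without a library each. The complex V factor ATPAF2 was lower by -0.39. With HA-TRIM15, UQCC2 (-0.28), HIGD2A (-0.34) and COA6 (-0.26) were lower. With shFOXRED1, LYRM7 (-0.57), TTC19 (-0.19), LRPPRC (-0.41), which stabilizes mitochondrial mRNAs, and COX17 (-0.40) were lower. UQCC2 lost its call in 3, COA6 in 2 and TTC19 in 5 of the 6 fits without a library, and COX17 without shControl replicate 2.

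Cytochrome c, the carrier between complexes III and IV, changed by more than any of the 35 members in 3 of the 4 experiments. CYCS was at 270, 268 and 261 CPM in HFD and 152, 148 and 149 CPM in ND xenografts (0.83, SE 0.034, adjusted p = 1.23e-11). With shYY2 it was at 126, 119 and 118 CPM against 337, 328 and 368 CPM (-1.51, SE 0.042, adjusted p = 3.82e-14). With shFOXRED1 it was at 86.5, 84.5 and 85.4 CPM against 170, 178 and 186 CPM (-1.06, SE 0.057, adjusted p = 4.77e-10). In each of these the groups did not overlap, while CYCS did not pass with HA-TRIM15 (0.09, adjusted p = 0.0955). HCCS, which attaches heme to cytochrome c, was lower with shYY2 (-0.75) and higher with HA-TRIM15 (0.14, adjusted p = 0.0498), a call lost in 5 of the 6 fits without a library.

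Complex II, which feeds electrons into complex III and pumps no protons, showed mixed calls. SDHD (0.49) and SDHB (0.35) rose in HFD xenografts. With shYY2, SDHA (0.43) and SDHD (0.16) were higher and SDHB (-0.16) and SDHC (-0.24) lower. SDHA (-0.17) and SDHC (-0.13) were lower with HA-TRIM15, and SDHB (-0.25) and SDHC (-0.20) were lower with shFOXRED1. The SDHB call with shFOXRED1 was lost in 4 of the 6 fits without a library, the SDHD call with shYY2 did not hold without shYY2 replicate 2 or shControl replicate 3, and the SDHA and SDHC calls with HA-TRIM15 were each lost in 5 of the 6 fits without a library. The calls of SDHB in HFD xenografts, SDHB and SDHC with shYY2 and SDHC with shFOXRED1 were not followed under the alternatives.

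Of 11 minor isoforms and further subunits, 5 passed the filter in the first 3 experiments and 4 in the last. COX6B2, the testis-type isoform of subunit 6B, was at 5.66, 5.03 and 6.69 CPM in HFD and 2.02, 1.80 and 2.23 CPM in ND xenografts (1.57, adjusted p = 1.04e-07), and at 9.31, 9.72 and 9.90 CPM with shYY2 against 3.73, 3.78 and 3.68 CPM (1.37, adjusted p = 8.29e-09). The small ATP synthase subunit ATP5MJ rose in HFD xenografts (0.61) and was lower with shFOXRED1 (-0.35), where ATP5MK was lower too (-0.45). UQCRHL, a retrotransposed copy of UQCRH, was higher with shYY2 (0.45) and its reads may be shared with UQCRH.

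Among 12 nuclear regulators of respiratory genes, 9 were lower and 1 higher with shYY2, 5 higher and 2 lower in HFD xenografts, 2 lower and 1 higher with HA-TRIM15, and 2 higher and 2 lower with shFOXRED1. The shares of all genes were 38.1% lower and 36.8% higher with shYY2, 25.6% higher and 23.9% lower in HFD xenografts, 9.53% lower and 12.5% higher with HA-TRIM15, and 16.8% higher and 19.7% lower with shFOXRED1, the last pair close to 2 of 12. PPRC1, a coactivator of the PGC-1 family, was at 39.0, 36.9 and 38.7 CPM with shYY2 and 110, 107 and 103 CPM with shControl (-1.48, adjusted p = 3.19e-14), and GABPB1, the β subunit of the GA-binding protein, was lower by -1.05. PPARGC1A, which encodes PGC-1α, was higher with both knockdowns (0.44 with shYY2, 0.39 with shFOXRED1) and lower in HFD xenografts (9.43, 7.54 and 10.4 CPM against 16.9, 15.1 and 18.5 CPM, -0.84, adjusted p = 3.74e-06), where PPARGC1B (0.28) and TFAM (0.26) were higher and ESRRA lower (-0.14). The ESRRA call in the xenografts was lost without HFD replicate 3 (adjusted p = 0.0692) and in the fit of all 24 libraries (0.124), and that of PPARGC1B with total counts alone (0.0661). ESRRA, an estrogen-related receptor that works with PGC-1, was higher with shFOXRED1 (0.53), and the mitochondrial transcription factors TFB1M (-0.58) and TFB2M (-0.39) were lower there. With HA-TRIM15, POLRMT (-0.21) and PPRC1 (-0.13) were lower and YY1 higher (0.10). The PPRC1 and YY1 calls were lost in 5 of the 6 fits without a library.

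**Figure D2:**
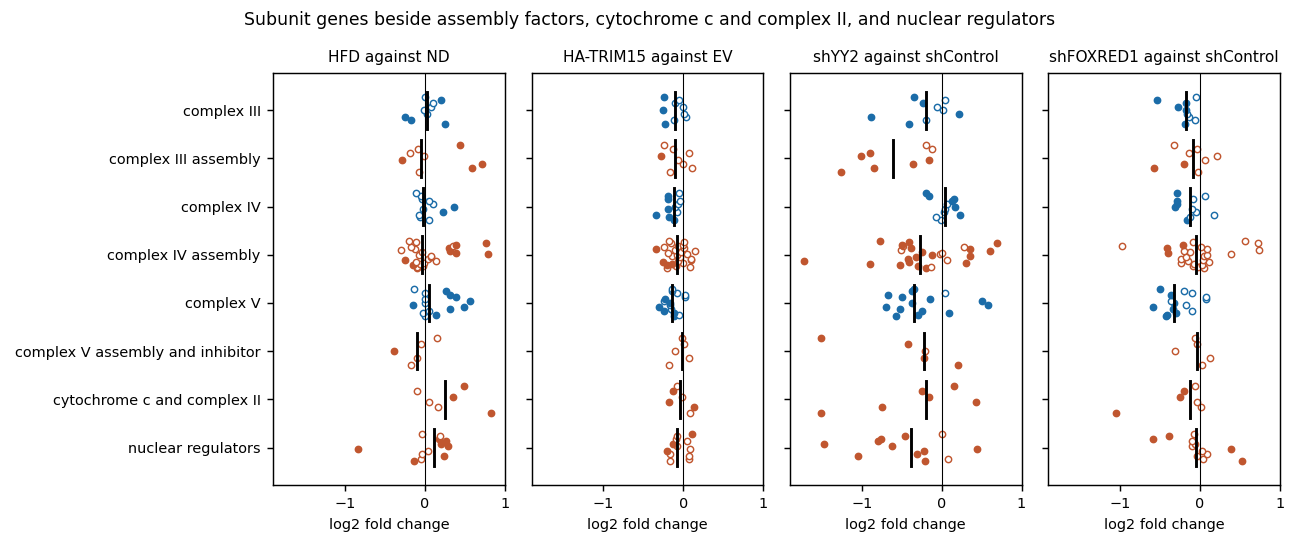
Log2 fold change (horizontal axis) of single genes in the subunit lists (blue) and in the lists of assembly factors, cytochrome c with complex II, and nuclear regulators (orange) in the 4 experiments, with filled points where the adjusted p was under 0.05 and a black bar at the list's median. With shYY2 the complex III assembly genes have a median of -0.60 and the subunits of complex III one of -0.19, while complex IV subunits lie around 0.04.

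The effects of the experiments were then compared with each other by contrasts over all 24 libraries. No library is shared between the 4 experiments, while the contrasts that involve shYY2 share the YY2 libraries and those that involve HA-TRIM15 share the TRIM15 libraries. The effect of shYY2 and that of shFOXRED1 differed for 18 of the 35 members, 13 above and 5 below 0, where 55.5% of all genes differed, 28.8% above and 26.7% below. ATP5ME (difference 0.90, SE 0.26, adjusted p = 0.00449), ATP5MC2 (0.80, SE 0.094, adjusted p = 1.44e-08) and UQCRH (0.62, SE 0.11, adjusted p = 1.06e-05) lay higher with shYY2. UQCR11 (-0.70), ATP5MG (-0.53) and ATP5PB (-0.27) lay lower. All 5 complex IV members that differed lay above 0. For ATP5MC1 the effects were -0.70 and -0.59 and their difference did not pass (-0.08, SE 0.12, adjusted p = 0.631).

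The effect of HA-TRIM15 and that of shYY2 differed for 17 members, 7 above and 10 below 0, where 57.4% of all genes differed, 29.3% above and 28.2% below. UQCR11 (0.88), ATP5PB (0.66) and ATP5MG (0.48) lay higher with HA-TRIM15, and ATP5MC2 (-0.79), ATP5ME (-0.78) and COX5B (-0.61) lay lower. ATP5ME did not pass without shYY2 replicate 1. The effect of HFD and that of HA-TRIM15 differed for 16 members, all above 0, where 28.4% of all genes differed, 16.0% above and 12.3% below. The largest of these differences were in ATP5ME (0.81), ATP5MC1 (0.79, SE 0.11, adjusted p = 7.39e-07) and CYC1 (0.48, SE 0.074, adjusted p = 7.97e-06). ATP5ME did not pass without ND replicate 2 or HA-TRIM15 replicate 3, and with total counts alone 8 members lay above and 1 below 0.

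**Figure D3:**
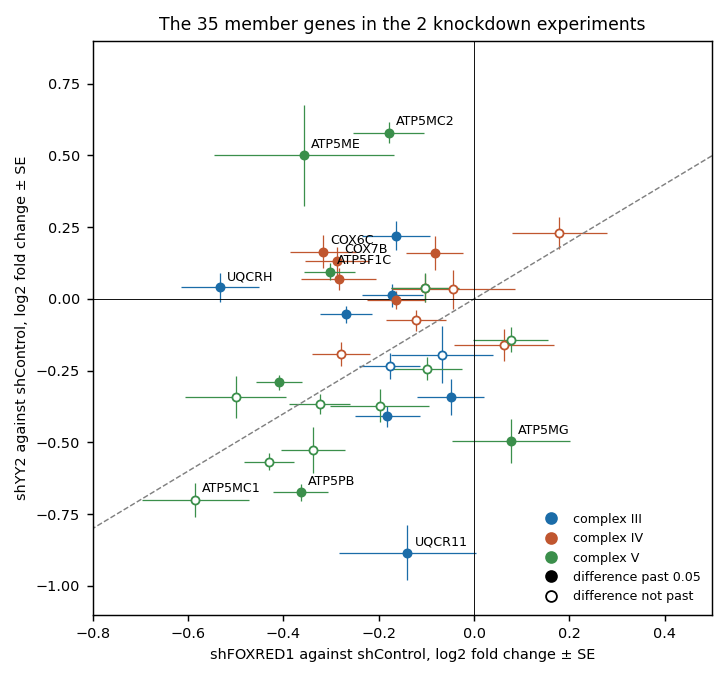
Log2 fold change ± SE of the 35 members with shFOXRED1 (horizontal axis) and with shYY2 (vertical axis), colored by complex and filled where the difference of both effects passed an adjusted p of 0.05. ATP5MC2 (0.58 with shYY2, -0.18 with shFOXRED1) and ATP5ME lie at the upper edge and UQCR11 (-0.88 with shYY2, -0.14 with shFOXRED1) at the lower edge.

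Across the experiments, 4 members were lower in 3 of the 4 (ATP5F1A, ATP5MC1, ATP5MC3 and CYC1), 14 in 2, 13 in 1 and 4 in none. As shares of the members these are 11.4%, 40%, 37.1% and 11.4%, and of the 14519 genes tested in every experiment 4.12%, 21.8%, 39.4% and 34.4%, while 0.262% of genes and 0 members were lower in all 4. ATP5ME and COX6C were higher in 2 experiments, the xenografts and shYY2 (5.71% of members, 19.7% of genes), and 15 members in 1. ATP5MC1 and CYC1 had a call in all 4 experiments, higher in HFD xenografts and lower in the others, and ATP5PD, a peripheral stalk subunit, had none. A call in all 4 was held by 5.71% of members and 6.79% of genes, so that this count lay near the background. Of the members lower with HA-TRIM15, 8 were also lower with shYY2, which is 53.3% of the first list and 47.1% of the second, and 7 were also lower with shFOXRED1 (46.7% and 38.9%). Over all genes, the corresponding shares were 48.4% and 11.9%, and 23.7% and 11.5%. The knockdowns shared 10 lower members, 58.8% of those with shYY2 and 55.6% of those with shFOXRED1, where over all genes the shares were 31.0% and 61.1%. These names were chosen by the number of calls, after the values were seen.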

How the data were processed

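RNA-seq of 24 libraries was analyzed, 3 for each of 8 groups. The deposited files hold raw read counts per gene, made by the authors before deposit, and they list 61860 Ensembl genes, of which 61757 (99.83%) were named through the gene table. The submitters' processing notes name the builds hg38 and mm10, while the aligner, the counter, the annotation and the treatment of mouse reads are not given in the sources used here. The labels and the study's methods differ on the RNA and library kits, so strand-aware counting is uncertain. The deposited tables carry no column that was left out (0 columns not used).

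Each experiment was fitted by itself with edgeR 4.0.16 in R 4.3.3: filterByExpr (minimum count 10, minimum total 15), TMM scaling, quasi-likelihood F-test, and Benjamini-Hochberg adjustment over all 17012 (xenografts), 15745 (HA-TRIM15), 16006 (shYY2) and 15730 (shFOXRED1) genes that entered. A gene passed at 0.05, whatever the size of its change. The SE was taken from the fold change on the log2 scale and the root of its F statistic. Effects were compared by contrasts in 1 fit of all 24 libraries (17980 genes). RPKM used the union of all exons of a gene in GENCODE 29. This annotation gave all 35 members a length, and its build was used for nothing else. Promoter sequences came from RefSeq (GRCh38.p14).

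The members and all lists were chosen with earlier results of these data known. Named were, per experiment and complex, up to 3 members past the threshold with the largest change in each direction (where none passed, the one with the lowest adjusted p). In every experiment UQCRFS1, CYC1, COX4I1, NDUFA4, ATP5F1B, ATP5MC1, ATP5MC2 and ATP5MC3 were named by role. Up to 2 genes per direction came from each other list and up to 3 from each contrast, with the targeted gene in its own experiment. Some further complex II calls were printed outside this rule.

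No replicates were the same library resampled, since the chi-square per gene was 1.47 to 8.10 over the 24 replicate pairs, where sampling alone gives 1. These values do not tell separate cultures or animals from repeated libraries of the same RNA. Same-numbered libraries deviated together in the FOXRED1 experiment (r = 0.214, 0.127 and 0.414 over genes with a mean of at least 10 CPM). Over all genes tested there, r was 0.046, 0.0245 and 0.118. In the first gene set, shFOXRED1 replicate 2 with shControl replicate 1 (0.206) and replicate 1 with 2 (0.151) also deviated together. Replicate 3 with a different number gave -0.309 to -0.195. The numbers therefore cannot be read as pairing samples from these correlations, and the labels name no shared batch. In every other experiment at least 1 same-numbered pair was under 0.1. The methods state no block, so it was kept as an alternative, beside RLE and upper-quartile scaling, total counts alone, no filter, at least 10 counts in every library, DESeq2 1.42.0, all 24 libraries in 1 fit, and leaving out each library.

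On counts simulated from each experiment with 200 changed genes, genes changed 1.2-fold were recovered at 71.9% (xenografts), 52.5% (HA-TRIM15), 48.2% (shYY2) and 25.7% (shFOXRED1), and genes changed 1.5-fold at 95.8%, 92.0%, 89.9% and 82.4%. Small changes were thus missed most often in the simulation of the FOXRED1 experiment. Far more than 200 genes passed in each experiment, so the adjustment was stricter in the simulation than in the data. These rates therefore do not give the recovery of the reported calls.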

Additional observations from a re-analysis of the deposited data

Results flagged for a closer look

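In 8 cases a member passed the threshold in opposite directions in 2 experiments and the difference of the effects also passed. Only the 3 contrasts named below were examined. HFD was not contrasted with either knockdown, where CYC1 and ATP5F1B, among others, also had calls in opposite directions. By the same rule, 9.21% of all genes were found between the knockdowns (members 3 of 35, 8.57%), 9.02% between HA-TRIM15 and shYY2 (members 3 of 35) and 4.39% between HFD and HA-TRIM15 (members 2 of 35, 5.71%), so that the members lay near the background. Between the knockdowns, COX6C differed by 0.52 (SE 0.14, adjusted p = 0.00192 by edgeR), with 0.16 for shYY2 and -0.32 for shFOXRED1. COX7B differed by 0.47 (0.13 and -0.29) and ATP5F1C by 0.44 (0.10 and -0.30). Between HA-TRIM15 and shYY2, COX5B differed by -0.61 (-0.34 and 0.23, adjusted p = 3.91e-05), COX7C by -0.39 (-0.19 and 0.16) and ATP5F1C by -0.25 (-0.12 and 0.10). Between HFD and HA-TRIM15, CYC1 differed by 0.48 (0.25 and -0.22) and ATP5MC1 by 0.79 (0.48 and -0.30). The experiments were run as separate sets of libraries, and xenografts were compared with cultured cells, so effects of the experiment and of the treatment cannot be told apart in these contrasts. No test for single outlying samples was run, but each library was left out in turn. The chi-square per gene was 8.10 and 7.01 in the replicate pairs with shFOXRED1 replicate 3, and 2.15 between replicates 1 and 2. Without shFOXRED1 replicate 3, 3215 of all genes were higher and 3638 lower, against 2650 and 3102 with it. Without HA-TRIM15 replicate 1 these were 2594 and 2506, against 1973 and 1501. Leaving out any other library of these experiments gave fewer calls.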

How the results depend on the processing

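Across alternatives, the counts of higher and lower members stayed within 1.5 times of the reported ones except as follows. In the xenografts, higher members went from 11 to 7 with total counts alone, and lower members from 3 to 6 with upper-quartile scaling, 14 with total counts alone and 5 with the replicate block. With shYY2, higher members went from 8 to 14 with upper-quartile scaling. The members for which the HFD and HA-TRIM15 effects differed went from 16 to 9 with total counts alone. Total counts alone moved the median of all xenograft genes from -0.01 to -0.12, and the members' median lay 0.04 above it under each scaling. Of all xenograft genes called, the percentage higher went from 51.7 to 39.8 (upper-quartile) and 30.4 (total counts alone). In the HA-TRIM15 experiment it went from 56.8 to 40.6, with 0 higher and 19 lower members, and with shFOXRED1 from 46.1 to 57.3, with 0 and 14, both with total counts alone. Leaving out a library gave 11 to 13 higher and 1 to 4 lower members in the xenografts (1 without HFD replicate 3 or ND replicate 3), 0 higher and 7 to 20 lower with HA-TRIM15, 4 to 9 higher and 15 to 18 lower with shYY2, and 0 to 1 higher (1 without shFOXRED1 replicate 3) and 13 to 16 lower with shFOXRED1. The values that changed sign lay near 0. In the xenografts these were UQCRFS1 (-0.016 with total counts alone), COX4I1 (-0.0082 with upper-quartile scaling, -0.060 with total counts alone) and ATP5MC3 (-0.054, -0.106, and -0.0071 with at least 10 counts in every library, and -0.048 to 0.073 without 1 library). With shYY2 it was COX4I1 (0.0103 with RLE and with DESeq2, 0.079 with upper-quartile scaling, 0.0131 with total counts alone, 0.0219 with at least 10 counts in every library, 0.0295 with all 24 libraries, and -0.026 to 0.0147 without 1 library), and it passed with upper-quartile scaling (adjusted p = 0.0303 by edgeR). The cause was not tested. The replicate block gave 11 higher and 5 lower members in the xenografts, 0 and 17 with HA-TRIM15, 8 and 19 with shYY2, and 0 and 20 with shFOXRED1. Of 1992 values of single named genes under alternatives, 1786 kept direction and side of the threshold, 171 lost and 18 gained the call, and 17 changed sign.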
